A study of Mus musculus with 2 samples.

Results

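The Atf4 branch of the integrated stress response was described from 10 genes listed by name, with no threshold on their values: Atf4, Atf3, Atf5, Ddit3, Ddit4, Asns, Trib3, Chac1, Sesn2 and Cebpb. They were matched by symbol, and all 10 were found among the 15127 protein-coding genes of the count table. RNA came from pSM44 cells, female embryonic stem cells of an F1 cross between 129 and castaneous mice, in which doxycycline switches on the silencing RNA Xist at its own locus on the 129 allele. The 2 poly(A) RNA libraries formed a single group, grown in serum-free 2i/LIF medium and given doxycycline at 2 μg/mL for 24 h. The table held 1 column of raw counts, with 10017978 counts in all. No source used here says whether that column sums the libraries or comes from 1 of them. Each gene therefore had 1 value, no replicate error could be computed and no test was made. Untreated or stressed cells were not analysed here, so every value is a level in these cells and none is a response to doxycycline, to Xist or to stress.

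In the integrated stress response, kinases that sense amino acid shortage, unfolded proteins, viral RNA or heme shortage phosphorylate the translation factor eIF2alpha. General protein synthesis then falls, while translation of the Atf4 mRNA rises, because short reading frames in its leader govern which start codon is used. The ATF4 protein, a basic leucine zipper (bZIP) activator, binds composite C/EBP-ATF response elements and switches on genes for amino acid supply, tRNA charging and feedback. ATF4 output is thus set in large part by translation, which mRNA counts do not measure.

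Levels are given as CPM, the count divided by the table's total in units of 1000000 counts, with a 95% Poisson interval that covers counting error only. All 10 genes were at CPM 1 or more, which took 11 counts, against 80.1% of the genes in the table and 55% of all annotated protein-coding genes. At CPM 100 or more there were 4 of the 10, against 15.5% of the table. The median of the 10 was 43.5 CPM, beside 18.3 CPM for all genes in the table. By CPM, Cebpb at 5.39, Ddit3 at 16.9 and Atf5 at 18.1 lay below the median of all genes. The intervals of Ddit3 (14.4 to 19.6) and Atf5 (15.5 to 20.9) included that median. Cebpb was the lowest of the 10, but its exons overlap another gene and its value is uncertain. The highest was among the most abundant genes of the table, so the 10 genes did not share a level.

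**Figure D1:**
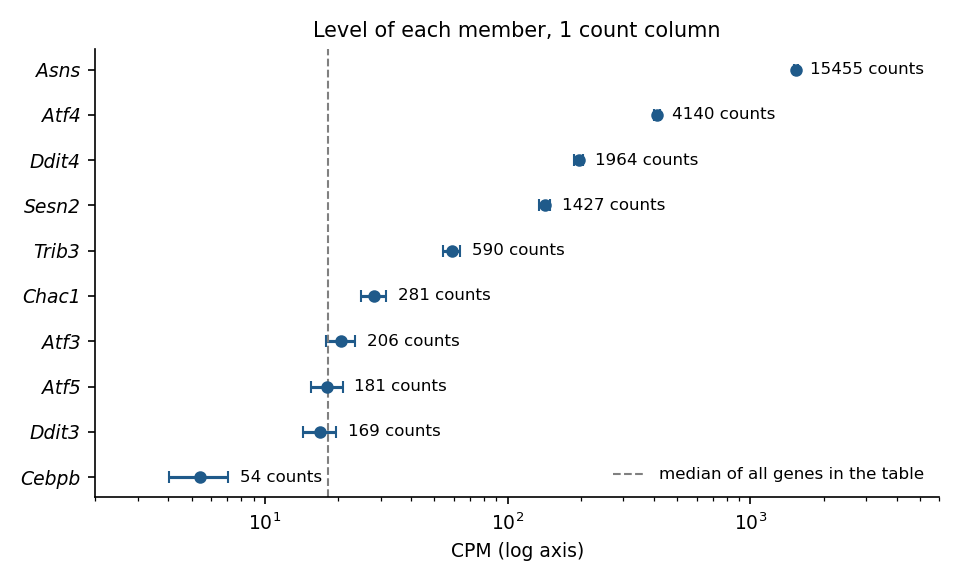
CPM of each of the 10 genes on a log axis, with the raw count printed beside each point, bars for the 95% Poisson interval and a dashed line at the median of all genes in the table (18.3 CPM). Levels ran from 5.39 CPM for Cebpb to 1543 CPM for Asns, with Atf3, Atf5 and Ddit3 close to the dashed line.

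Among the transcription factors Atf4 stood far above the others. Atf4 (ENSMUSG00000042406, chromosome 15, 80255184 to 80257541, plus strand, GRCm38), the central activator, had 4140 counts, or 413 CPM (400.8 to 426.0), and ranked 351 of the table. Atf5, a close relative that is also translated under stress and is tied to the mitochondrial unfolded protein response, had 181 counts, or 18.1 CPM (15.5 to 20.9). Atf3, a stress-induced factor that dimerizes with other bZIP proteins, had 206 counts, or 20.6 CPM (17.9 to 23.6). These and Ddit3 were mid-table genes, between percentiles 48.8 and 52.2 of CPM.

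Ddit3 (ENSMUSG00000025408, chromosome 10, 127290774 to 127296288, plus strand) encodes CHOP, a factor linked to cell death under prolonged stress. It had 169 counts, or 16.9 CPM (14.4 to 19.6). The annotation gives the symbol Ddit3 a second, 105-base gene model inside the first, and the table has 1 row for the symbol, so the count was assigned to the longer model. Cebpb, a C/EBP factor that can pair with ATF4, was the lowest of the 10 with 54 counts, or 5.39 CPM (4.05 to 7.03). The Cebpb value is uncertain, since 60.4% of its exonic bases lie under the span of Tmem189 on the other strand, as described further on.

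Among the effectors the amino acid enzyme Asns dominated. Asns (ENSMUSG00000029752, chromosome 6, 7675169 to 7693254, minus strand), which makes asparagine from aspartate and glutamine, had 15455 counts, or 1543 CPM (1519 to 1567). It ranked 47 of 15127 genes and held 63.2% of the counts of the 10 genes together (exact Clopper-Pearson 95% interval 62.6 to 63.8). Chac1, which encodes a glutathione-degrading enzyme and is a classical marker of strong ATF4 and CHOP activity, had 281 counts, or 28.0 CPM (24.9 to 31.5). The pair of metabolic enzymes in the set thus lay at opposite ends of the effectors.

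The feedback and growth-control genes lay between these. Ddit4, also called REDD1, which restrains the growth kinase complex mTORC1, had 1964 counts, or 196 CPM (187 to 205). Sesn2, a leucine-sensing inhibitor of mTORC1, had 1427 counts, or 142 CPM (135 to 150.03). Trib3, a pseudokinase that binds ATF4 and limits its activity, had 590 counts, or 58.9 CPM (54.2 to 63.8). Both mTORC1 inhibitors were above CPM 100 and Trib3 was not. Ddit4 and Sesn2 are also known targets of p53, and Ddit4 of hypoxia and glucocorticoid signalling.

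Counts grow with transcript length, so the genes were compared as CPM per kilobase of exon. Asns stood highest at 564 CPM per kilobase, followed by Atf4 at 175, Ddit4 at 112, Sesn2 at 41.0, Trib3 at 27.7 and Chac1 at 17.1. Ddit3 at 9.85, Atf3 at 9.55 and Atf5 at 9.07 formed a group, and Cebpb was last at 3.58. Of the 9 steps between neighbours in this order, 7 exceeded counting error.

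The step from Asns to Atf4 was a ratio of 3.22 (exact 95% interval of the ratio of counts, 3.11 to 3.33), and from Ddit4 to Sesn2 it was 2.73 (2.54 to 2.92). The smallest separated step was Sesn2 over Trib3, at 1.48 (1.34 to 1.63). Ddit3 over Atf3 was 1.03 (0.837 to 1.27) and Atf3 over Atf5 was 1.05 (0.858 to 1.29), so their order by exonic length was not detectable at this depth. With the longest transcript as the length in place of all exons, Ddit3 reached the level of Chac1, and the ratio of Chac1 to Ddit3 fell from 1.74 to 0.984. On that length Ddit3 also exceeded Atf3 beyond counting error, at 1.68, and on the gene span at 7.10, so the place of Ddit3 depends on the length used. The gene span also turned Asns over Atf4 to 0.487, Sesn2 over Trib3 to 0.866 and Atf3 over Atf5 to 0.105. The place of Asns at the top thus holds for exonic length and not for the gene span. Libraries may differ by more than counting error, which could not be measured with 1 column.

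Overlap with other genes touched 3 of the 10, and leaving the overlapped bases out of the length changed the bottom of this order. Over the whole annotation, 67.1% of 14131 protein-coding genes with no other gene over any exonic base were in the table. Of 476 genes that lay wholly inside genes of the opposite strand, without touching another exon, 6.30% were in the table, and of 206 inside a gene of the same strand 8.25% were. Genes under another gene's span were thus mostly missing from the table, on either strand, and a low or absent value of such a gene is not read here as low expression. Cebpb had 908 of its 1504 exonic bases under Tmem189. Atf5 had 12.9% of its exonic bases under Nup62 and Il4i1, and Ddit3 had 10.97% under other gene models. Of these 188 Ddit3 bases, 105 lie under the second model of the symbol Ddit3 itself. They were left out of the Ddit3 length under no other gene as well. The other 7 genes had no exonic bases under another gene model.

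With only the exonic bases under no other gene as the length, Cebpb rose from 3.58 to 9.04 CPM per kilobase, from percentile 48.9 to percentile 67.0 of the table's distribution per exonic kilobase. Ddit3 was then at 11.1, Atf5 at 10.4 and Atf3 at 9.55. None of the 6 pairs among these 4 genes was separated, the widest being Ddit3 over Cebpb at 1.22 (0.895 to 1.69). On that length the 4 less abundant factors stood together, and Atf4 was 16.8 times Atf5 (14.5 to 19.7). Asns was 157 times Cebpb (121 to 209.6) per exonic kilobase and 62.4 times (47.8 to 83.1) on the bases under no other gene. That length is apt only if reads under another gene's span were left uncounted, which no source used here states. Of the 908 Cebpb bases under Tmem189, 312 lie under exons.

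**Figure D2:**
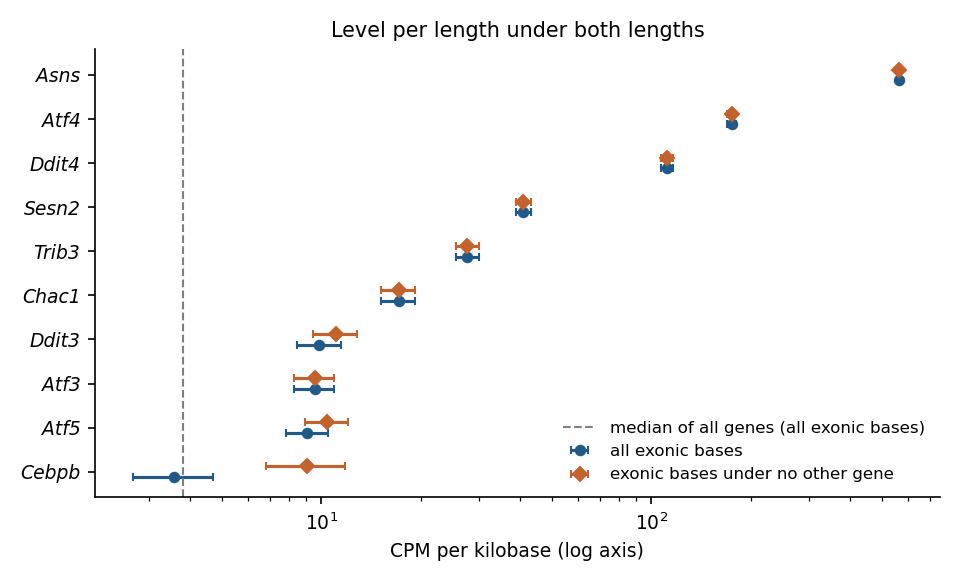
CPM per kilobase on a log axis for each gene, computed over all exonic bases (blue circles) and over exonic bases under no other annotated gene (orange diamonds), with 95% Poisson intervals and a dashed line at the median of all genes (3.799 over all exonic bases). The 7 genes without overlap keep their value, while Cebpb moves from 3.58 to 9.04, level with Atf5, Atf3 and Ddit3.

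Counting over whole gene spans without regard to strand would remove nested genes from the table. Of 684 genes wholly under another gene's span, without touching another exon, 48 were still in the table. No source used here states the setting, and whether such counting was used was not tested. Under such counting intronic reads would be part of every count, and CPM per exonic kilobase would not be a measure of exonic reads alone. Atf3 has the longest span of the 10, 47744 bases against 2154 exonic bases, and the part of intronic reads in its count was not tested. The 10 genes had compact models, with a median span of 4959 bases and a median of 2059 exonic bases, beside 24652 and 4241 for the 15042 genes of the table with a model.

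Set beside their nearest relatives, the stress-branch member was the higher gene in the sestrin, tribbles and Ddit4 families. Sesn2 was 4.61 times Sesn1 per kilobase (4.10 to 5.19) and 10.5 times Sesn3 (9.55 to 11.6). Trib3 was 7.92 times Trib1 (6.77 to 9.29) and 19.1 times Trib2 (14.7 to 25.2). Ddit4 was 20.02 times its paralog Ddit4l (17.1 to 23.6). None of these genes had exonic bases under another gene.

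Raw counts behind these ratios were 355 for Sesn1, 596 for Sesn3, 219 for Trib1, 63 for Trib2 and 163 for Ddit4l. By raw count, without length, the same members were still higher, by 2.39 times for Sesn2 over Sesn3 and 12.05 times for Ddit4 over Ddit4l. Chac2, the constitutive relative of Chac1, was not in the table and lies wholly inside Asb3, so the pair could not be compared.

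Relatives among the bZIP factors were more even. Atf3 was lower than Jdp2, its closest relative and a repressor at the same kind of site, at a ratio of 0.604 per kilobase (0.506 to 0.720) with 340 counts for Jdp2. Cebpg, a partner of ATF4 with no activation domain of its own, had 206 counts and was level with Cebpb at 3.66 CPM per kilobase (ratio of Cebpb to Cebpg 0.980, 0.712 to 1.33). On the bases under no other gene that ratio became 2.42 (1.76 to 3.28), so the order of this pair depends on the length used. Cebpa had 43 counts, Cebpd 86 and Cebpe 8, the last at 0.799 CPM (0.345 to 1.57).

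Cebpb was higher per exonic kilobase than Cebpa, Cebpd and Cebpe, at 2.201 (1.45 to 3.37), 1.56 (1.09 to 2.22) and 5.57 times (2.63 to 13.6). By raw count Cebpd, itself 48.3% under Spidr, exceeded Cebpb, and so did Cebpg (ratio of Cebpb to Cebpg 0.262, 0.191 to 0.355), while Cebpb and Cebpa were not separated (1.26, 0.826 to 1.92). Leaving aside Cebpz, which has the name but is not a bZIP protein, every C/EBP gene was below 21 CPM, the highest being Cebpg at 20.6 CPM (17.9 to 23.6).

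**Figure D3:**
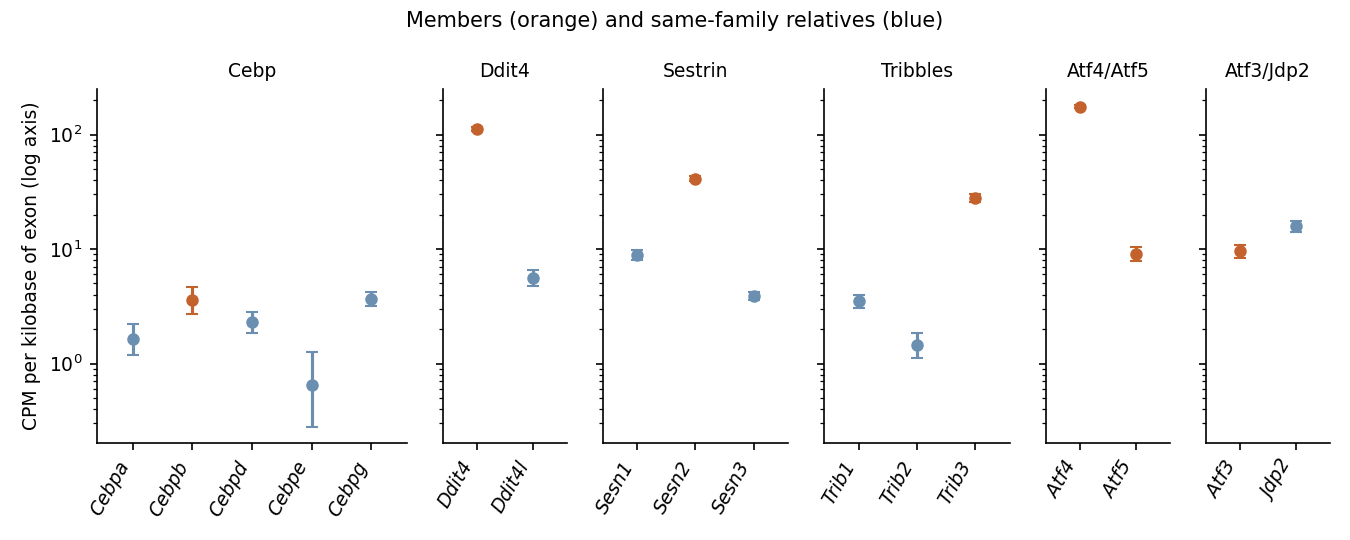
CPM per kilobase of exon on a log axis for the genes of 6 families, members of the set in orange and relatives in blue, with 95% Poisson intervals. Ddit4, Sesn2, Trib3 and Atf4 stand above their relatives, Cebpb is level with Cebpg, and Atf3 lies below Jdp2.

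The sequences around the gene starts were searched for the core of the C/EBP-ATF response element, TGATGNAA, on both strands. The windows ran from 250 bases before to 50 bases after each RefSeq start (GRCm38.p6), and all 10 genes had one. Asns, Atf3, Chac1 and Trib3 held a match, 4 of 10. A match was present for 4.51% of 27025 genes with a window, and for 2.85% of the 11881 that were also in the count table under the same symbol. The 30 bases around each match are shown because they carry the element through which ATF4 is known to act, written on the strand that reads TGATGNAA, with the match in capitals.
Asns (chr6:7693214-7693243, minus strand): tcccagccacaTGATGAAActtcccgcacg
Atf3 (chr1:191183425-191183454, plus strand): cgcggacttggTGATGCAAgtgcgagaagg
Chac1 (chr2:119351038-119351067, minus strand): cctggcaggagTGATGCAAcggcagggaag
Trib3 (chr2:152344028-152344057, plus strand): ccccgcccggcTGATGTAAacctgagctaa

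The match was 16 to 23 bases before the RefSeq start in Asns, 103 to 110 before it in Atf3, 186 to 193 before it in Chac1, and 15 to 22 bases into the transcript in Trib3. In the GENCODE annotation, which places some starts elsewhere, the Asns match lies in an exon, the Atf3 match in an intron downstream of an earlier start, and the Chac1 and Trib3 matches upstream of the gene. Atf3 and Chac1 share the variant TGATGCAA, Asns has TGATGAAA and Trib3 has TGATGTAA. A match is a string of letters and not a measured binding site. For the other 6 genes these letters are not in this window, which says nothing about elements elsewhere.

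Genes with and without a match did not sort by level. The 4 with one stood at 1543, 58.9, 28.0 and 20.6 CPM, and the 6 without one ran from 5.39 to 413 CPM. The cyclic AMP response element, TGACGTCA, reads the same on both strands. None of the 10 genes had it in a window, beside 2.03% of all genes and 3.27% of those in the count table. The 11 windows of the 10 genes (Atf5 has a pair of starts) had 54.7 to 80.7% G and C, all above the median of 52.7% over 32851 windows.

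Elsewhere in the branch, the same element was in the windows of 5 of 9 tRNA synthetase genes on the list of ATF4 targets, namely Aars, Gars, Iars, Tars and Yars, and of 0 of 6 other cytosolic synthetase genes. These lists were drawn up from what is known of ATF4 targets, so the contrast is not independent of that knowledge. It was also in 2 of 10 windows of the serine, proline and one-carbon list, 2 of 7 of the transporter list, 4 of 13 of the further stress targets, 1 of 8 for eIF2 and eIF2B, and 1 of 28 for bZIP factors. It was in 0 of 18 for the IRE1 and ATF6 branches and 0 of 15 for the other stress pathways. The matches of Gars, Iars, Tars and Yars, and that of Jdp2 as the single bZIP match, are shown for comparison with the 4 above.
Gars (chr6:55037960-55037989, minus strand): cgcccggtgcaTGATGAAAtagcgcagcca
Iars (chr13:49682126-49682155, minus strand): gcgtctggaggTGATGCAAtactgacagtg
Tars (chr15:11399655-11399684, plus strand): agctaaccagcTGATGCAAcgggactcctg
Yars (chr4:129189895-129189924, plus strand): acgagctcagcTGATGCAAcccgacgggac
Jdp2 (chr12:85599372-85599401, plus strand): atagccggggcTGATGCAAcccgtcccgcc

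The search string left only the base N free to vary. In 8 of these 9 sequences, counting both sets, that base was C or A, and in Trib3 it was T. These sequences are only a part of the matches found.

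**Figure D4:**
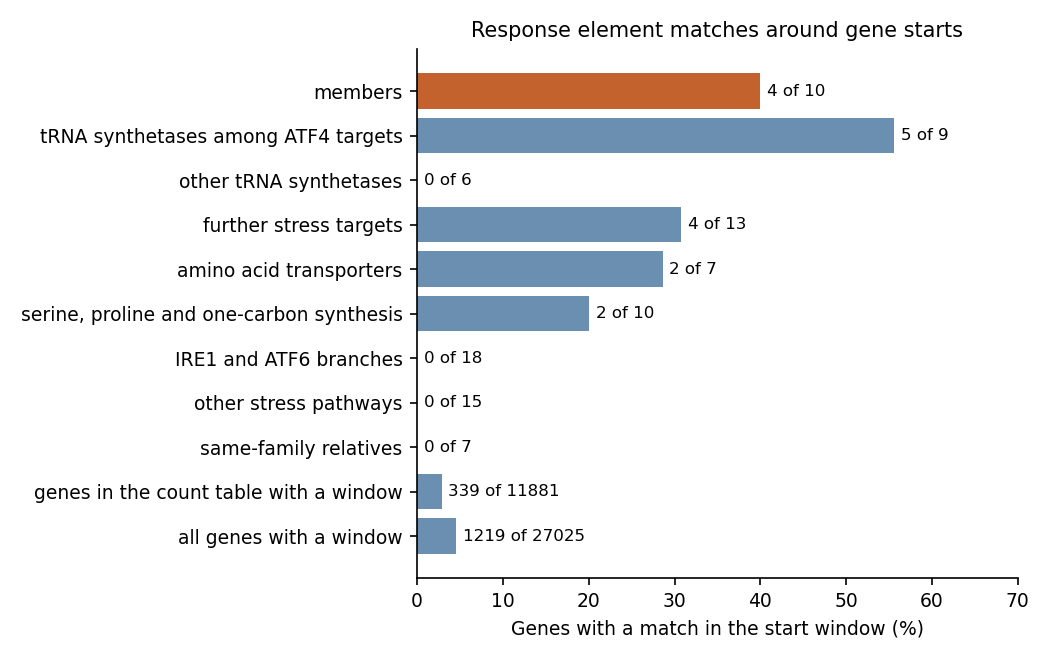
Share of genes in each list whose start window holds the C/EBP-ATF response element core, with the number of genes beside each bar. The 4 of 10 for the set and 5 of 9 for tRNA synthetases among ATF4 targets stand beside 4.51% of all genes with a window.

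The annotated leaders were read for start codons upstream of the coding sequence, the feature through which translation of some of these mRNAs is governed. One transcript was taken per gene, that with the longest coding sequence. Upstream ATGs were present in 6 of the 10 genes, beside 50.5% of 21558 genes, so their presence alone does not set the branch apart. Atf4 had 3 in a leader of 594 bases, Atf5 had 2 in 373 bases and Ddit3 had 2 in 186 bases. Asns, Atf3 and Sesn2 had 1 each, and Cebpb, Chac1, Ddit4 and Trib3 had none.

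In Atf4 and Atf5 an upstream reading frame ran past the start of the coding sequence in another frame. That is an arrangement known to limit use of the main start codon. Such a frame was present in 2 of the 10 genes, beside 16.8% of all genes and 16.1% of those in the count table. Its presence alone thus does not set the branch apart either. The 2 genes that share this leader layout differed by 19.3 times in level per exonic kilobase (16.7 to 22.6).

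Genes that act upstream of Atf4 were present at moderate levels. Each of the 4 eIF2alpha kinase genes passed CPM 1 and none reached CPM 100. Over all genes in the table the shares were 80.1% at CPM 1 or more and 15.5% at CPM 100 or more. The same shares stand beside the counts of each list below, and they compare only with the listed genes that were in the table. Eif2ak4, which encodes the amino acid sensor GCN2, had 466 counts, Eif2ak2 (PKR, the double-stranded RNA sensor) 340, Eif2ak3 (PERK, the endoplasmic reticulum sensor) 315 and Eif2ak1 (HRI, the heme-regulated kinase) 227. Per kilobase they lay within a narrow range, from 6.64 CPM for Eif2ak2 to 3.996 for Eif2ak1. Eif2ak2 and Eif2ak4 were not separated (1.06, 0.923 to 1.23). Eif2ak1 has 30.7% of its exonic bases under other genes, and on the bases under no other gene it stood at 5.77, above Eif2ak3 at 5.67, so the order of these genes depends on the length used.

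Of 9 genes for eIF2, the kinases' substrate complex, and for its exchange factor eIF2B, 7 were in the table, each past CPM 1, with a median of 108 CPM. Eif2b5, the catalytic subunit of eIF2B, had 7314 counts, ahead of Eif2s1 (eIF2alpha itself) with 3140 and Eif2s3x with 2502, and Eif2b2 was lowest with 584. Eif2b5 stood at 281 CPM per kilobase, 8.29 times the next eIF2B subunit gene Eif2b4 (7.73 to 8.90). Eif2b4, Eif2b1 and Eif2b2 did not differ between neighbours beyond counting error, and Eif2b3 was lowest at 16.6 CPM per kilobase. Eif2s2 was not in the table and lies wholly inside another gene, and Eif2s3y, which is Y-linked, was not in the table of this female line.

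Each of the 10 genes that restrain the response passed CPM 1, and their median was 146 CPM. Impact, an inhibitor of GCN2, had 3116 counts, the phosphatase catalytic subunits Ppp1cb and Ppp1ca had 3053 and 3029, and the adaptor Nck1 was lowest with 300. Of 37 bZIP factors and C/EBP-named genes, 28 passed CPM 1 and 2 were missing from the table, close to the 80.1% of all genes in the table. The median over the 35 in the table was 13.5 CPM. Nfe2l1, which directs proteasome gene expression, led with 3266 counts, then Cebpz with 1723 and Xbp1 with 1395. Fosl2 was the lowest above CPM 1, with 21 counts. Atf4 itself, at 4140 counts, exceeded every gene of that list.

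Genes on the lists of ATF4 targets differed widely in level, and the synthetase genes on and off the target list were all well above the median of the table. Each of the 12 genes of serine, proline and one-carbon synthesis passed CPM 1, and their median was 244 CPM. They were led by Psat1 with 6630 counts, Phgdh with 3547 and Shmt2 with 3290, enzymes of serine and glycine synthesis, and Aldh1l2 was lowest with 89. The 13 tRNA synthetase and tRNA export genes on the target list showed a median of 332 CPM, led by Aars with 9016 counts, Gars with 6435 and Nars with 5432, the lowest being Wars with 1684. The 8 other synthetase genes had a median of 231 CPM, led by Kars with 5937, Vars with 4629 and Qars with 3209, with Hars lowest at 720. Per kilobase the medians of the synthetase lists were 61.8 and 54.4, closer than by CPM.

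Amino acid transporter genes were uneven. Of 10, 9 were in the table and 8 passed CPM 1, with a median of 123 CPM. Slc3a2, the heavy chain of several exchangers, had 6690 counts, the glutamine transporter gene Slc1a5 had 3205 and the cationic transporter gene Slc7a1 had 1834. Slc7a11, the cystine transporter gene, was lowest above CPM 1 with 31 counts, although its window holds 2 matches to the element. Slc7a5 was not in the table and lies wholly inside another gene. Slc6a9, 92.1% under other genes, had 1 count.

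Of 16 further stress targets 14 were in the table and 13 past CPM 1, with a median of 48.3 CPM, close to that of the 10 genes. Eif4ebp1, a repressor of cap-dependent translation, led with 7565 counts, then the autophagy receptor gene Sqstm1 with 3792 and the oxidase gene Ero1l with 759. Lowest above CPM 1 was Gadd45a with 106, a gene with 48.7% of its exonic bases under another gene. Fgf21, a stress hormone gene, had 7 counts, or 0.699 CPM (0.281 to 1.44). Txnip and Map1lc3b were not in the table and lie wholly inside other genes.

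The list for the other branches of the unfolded protein response had a higher median per kilobase than the Atf4 branch, though its own genes ranged from 0.0337 to 402.5 CPM per kilobase. Of 20 genes of the IRE1 and ATF6 branches and their targets 19 were at CPM 1 or more. Their median was 119 CPM and 47.9 CPM per kilobase, beside 22.4 per kilobase for the 10 genes and 3.799 for all genes. The chaperone genes Calr, Canx and Hsp90b1 led with 11613, 9023 and 6289 counts, the sensor gene Ern1 was lowest above CPM 1 with 134, and Ern2 had 1. Of 16 genes of heat shock, oxidative stress, p53 and hypoxia 15 passed CPM 1, with a median of 111 CPM and 23.6 per kilobase. Txnrd1 had 5368 counts, the p53 targets Cdkn1a and Ccng1 4501 and 3026, and Hspa1b, a heat shock gene with a near-identical copy, 42. Its copy Hspa1a, 75.0% under other genes, had 1.

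**Figure D5:**
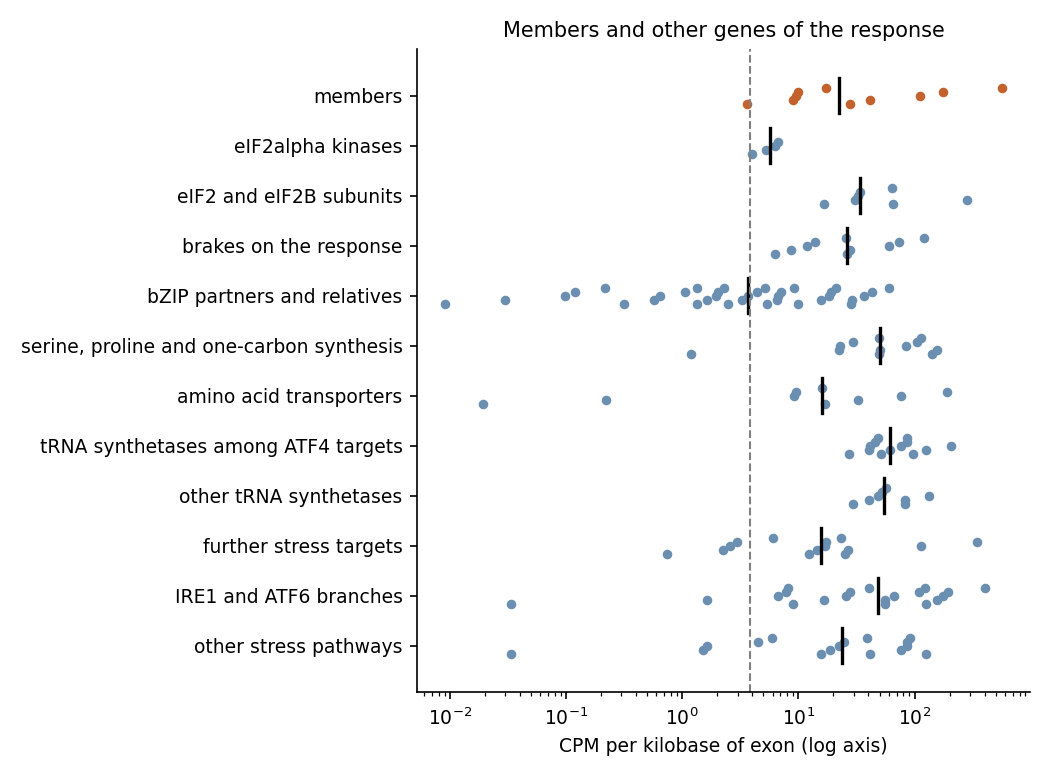
CPM per kilobase of exon on a log axis for each gene of the set (orange) and of the other lists (blue), with a black bar at each list's median and a dashed line at the median of all genes (3.799). The set spans 3.58 to 564, with a median of 22.4 beside 5.73 for the eIF2alpha kinases and 47.9 for the IRE1 and ATF6 branches.

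The labelled cell type was checked with markers. Each of the 8 embryonic stem cell markers passed CPM 100, and their median was 613 CPM. Of 8 fibroblast markers 4 were in the table and 3 at CPM 1 or more, the highest at 26.7 CPM, that of Thy1. Col1a1 had 58 counts, Col1a2 66 and Pdgfra 5, and Col3a1, Dcn, Lum and Postn were not in the table. The part of such cells in the levels above was not tested. Together the 10 stress-branch genes held 24467 counts, which is 0.244% of the table (exact Clopper-Pearson 95% interval 0.241 to 0.247).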

How the data were processed

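The authors deposited raw counts per protein-coding gene symbol in 1 column that names the cell line and treatment and no library. Per the submitters' processing notes, the tools were featureCounts of Subread 1.6.4, SAMtools, HISAT2 and Trimmomatic 0.38, with build GRCm38.p6. No source used here gives the annotation release, strand setting or counted feature. The total of 10017978 counts gives a gene at 11 counts, or CPM 1, a wide Poisson interval.

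Symbols were matched to GENCODE M21 (GRCm38), directly or through RefSeq synonyms, for 15042 of 15127 genes; of several models with 1 symbol the longest was taken. Exonic length is the union of annotated exons. Ratios carry exact binomial 95% intervals. Reads lack molecular identifiers, so copies of 1 molecule could be counted as separate reads. The intervals cover counting error only and may be too narrow for that reason. Start windows came from RefSeq (GRCm38.p6). Not every list gene had one, and only some matched sequences are printed.

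The members and the 14 other lists were chosen with earlier results of these data known. The rule named all members, kinases and relatives, and in other lists the 3 highest, the lowest at CPM 1 or more and up to 5 genes below that or not in the table. Functions were tested on simulated counts. Alternatives were other totals, minimums, pseudocounts and lengths. A comparison of protein sequences was planned and not made. Computations used scipy 1.17.1, numpy 2.4.6, pandas 2.3.3, Python 3.11.15 and matplotlib 3.10.9.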

Additional observations from a re-analysis of the deposited data

How the results depend on the processing

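All 10 genes passed every minimum tried (CPM 0.5, 5 counts, 10 counts and any count). Their share of the counts was 0.244%, and it was 0.265% without the 20 highest genes of the table in the total and 0.270% without ribosomal protein genes. Their median of 43.5 CPM became 48.1 with the latter total. On the log2(CPM + 1) scale the median of the 10 exceeded that of all genes by 1.21, 2.29 per kilobase of exon and 3.63 with annotated genes that are not in the table entered at 0. With those genes at 0, the medians of the bZIP list and of the same-family relatives turned from below to above that of all genes (1.80 and 1.90 on the log2 scale). By construction that setting lowers the median of all genes.

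Of the 9 neighbouring steps, 7 exceeded counting error by exons, 6 on the exonic bases under no other gene, 7 on the longest transcript and 7 on the whole gene span, a length added after the data were seen. The direction turned for Atf3 over Atf5 on the exonic bases under no other gene (0.917), for Chac1 over Ddit3 on the longest transcript (0.984), and, on the gene span, for Asns over Atf4 (0.487), Sesn2 over Trib3 (0.866) and Atf3 over Atf5 (0.105). Ddit3 over Atf3 became separated on the longest transcript (1.68) and the gene span (7.10), and Trib3 over Chac1 lost its separation on the gene span (1.001). Atf5 over Cebpb, 2.53 by exons, also lost its separation on the exonic bases under no other gene (1.15) and on the gene span (1.14). In the C/EBP family the direction turned for Cebpb over Cebpd by raw counts (0.628), where Cebpg also exceeded Cebpb (0.262), and for Cebpb over Cebpg on the exonic bases under no other gene (2.42). These lengths differ by construction for genes with long introns, retained introns or overlap. No paired analysis was possible because the table has 1 column. Leaving out a library could not be done for the same reason.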
